A study of Homo sapiens with 17 samples.

Results

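Steady-state RNA of the untreated head and neck cancer line BICR78 was compared with that of the untreated head and neck cancer line Cal27, with 1 RNA sequencing library for each line. A gene entered the comparison when at least 100 reads were counted for it in either line, which 11661 of the 34496 gene rows did. Genes were described by the difference in log2 CPM (reads per 1000000 counted reads) between the lines, and a gene was called higher or lower in BICR78 when that difference reached 2-fold (1 on the log2 scale). Both lines were grown without any agent named in the labels, and the labels give no genotype for either. The labels do not say whether the 2 cultures were handled together, and no line was sequenced more than once in the untreated set, so no difference here has a replicate check and no p-value is given. The values describe these 2 libraries, and bracketed ranges are exact 95% counting intervals that cover the counting of reads only.

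The other untreated libraries, used below only as further values, were 1 of SKN3, another head and neck cancer line, and 1 of Cal27 cells labelled as an NSD1 knockout. In a separate set, Cal27 given DMSO (the vehicle), the labelled knockout given DMSO and the labelled knockout given EPZ-6438 (tazemetostat, an inhibitor of the EZH2 methyltransferase) were sequenced as 2 replicates each, with no dose or time in the labels. The study as a whole concerned histone methylation in squamous carcinoma.

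Squamous carcinomas arise from stratified epithelia, in which basal cells make one set of keratins and cells moving to the surface switch to others and build a tough cornified envelope. Carcinoma cell lines keep parts of that programme to different extents, and they also differ by large gains and losses of chromosome segments that change the dose of many neighbouring genes together. NSD1 places the dimethyl mark on lysine 36 of histone H3, a mark that opposes the repressive lysine 27 trimethyl mark written by EZH2.

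BICR78 had 19494742 counted reads and Cal27 21738951, and the 10 RNA libraries ranged from 11745655 to 21738951. Mitochondrially encoded genes took 12.1% of the BICR78 reads and 7.48% of the Cal27 reads. The lines carried epithelial markers, including the squamous markers KRT5 and TP63. KRT5, TP63, CDH1 and EPCAM were counted at 6680, 292, 348 and 379 CPM in BICR78 and 11306, 708, 293 and 184 CPM in Cal27. Markers of other cell types were looked up too. Of 9 fibroblast markers 3 reached 100 reads (summed 55.6 CPM in BICR78 and 26.6 in Cal27), of 11 immune markers 3 did (37.3 and 74.2 CPM), of 7 endothelial markers 1 did (9.41 and 5.66 CPM), of 8 muscle markers 2 did (23.4 and 17.1 CPM), of 13 gland and gut markers 1 did (37.5 and 76.5 CPM), and none of 6 melanocyte or 8 neuronal markers did. The pan-leukocyte gene PTPRC had 4 reads in BICR78 and 0 in Cal27, and the T-cell gene CD3E, the B-cell gene MS4A1, the endothelial genes TEK and CLDN5 and the fibroblast genes THY1 and DPT had 0 in both. Markers at 0 in both lines were 2 of the 9 fibroblast, 2 of the 7 endothelial and 5 of the 11 immune genes. Of the 3 fibroblast markers with 100 reads, 2 were higher in BICR78 and 1 lower, with log2 differences from -4.14 to 3.28. The part of other cells in any result was not tested. In bulk RNA, fewer cells making a transcript and less of it per cell cannot be told apart.

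Of the 11661 genes, 1608 were at least 2-fold higher in BICR78, which is 13.8%, and 1024 were at least 2-fold lower, which is 8.78%. The other 9029 genes lay within 2-fold, and the median difference was -0.028 on the log2 scale with quartiles of -0.46 and 0.49. Large differences were more often towards BICR78: 772 genes were at least 4-fold higher and 317 at least 4-fold lower, and 199 were at least 32-fold higher against 56 at least 32-fold lower. For scale, the 2 Cal27 DMSO replicates differed by 2-fold in 28 of 10032 genes (0.279%), and the replicate pairs of the labelled knockout in 0.132% (DMSO) and 0.203% (EPZ-6438). Cal27 itself differed between library sets: untreated Cal27 against the mean of the Cal27 DMSO pair passed 2-fold at 672 of 10800 genes (6.22%). BICR78 against Cal27 passed it at 2632 genes (22.6%), BICR78 against SKN3 at 28.0%, and SKN3 against Cal27 at 36.7%, the first and the last of these sharing the Cal27 library. At the edge of the rule, 20 genes had exactly 100 reads in their higher line, 10 of them past 2-fold, and 13 rows with 99 reads stayed out, 10 of which would have passed. Protein-coding genes made up 11299 of the members (1531 higher, 973 lower).

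**Figure D1:**
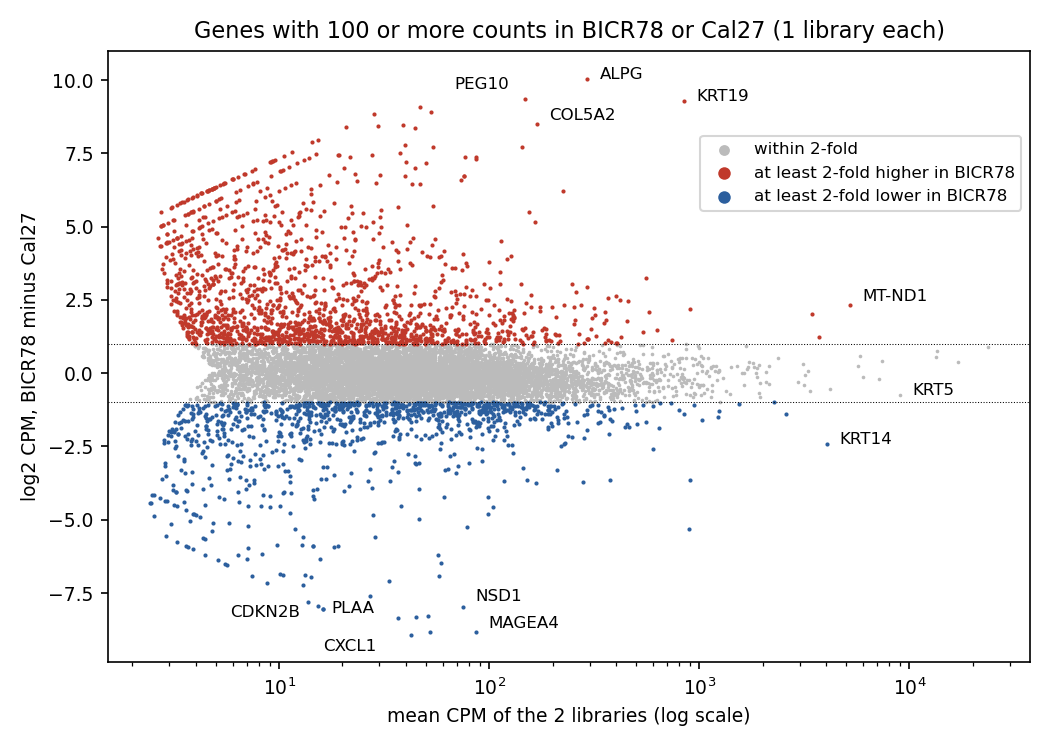
Each point is 1 of the genes with at least 100 reads in BICR78 or Cal27, with its mean CPM over both libraries on a log x axis and the difference in log2 CPM (BICR78 minus Cal27) on the y axis; dotted lines mark 2-fold. Red points are the genes at least 2-fold higher in BICR78 and blue points those at least 2-fold lower; KRT14, MT-ND1 and KRT5 are among the most abundant, and ALPG and CXCL1 are among the most extreme.

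NSD1, which encodes the histone H3 lysine 36 methyltransferase, was counted at 9 reads in BICR78 against 3137 in Cal27. That is 0.468 CPM (0.214 to 0.888) against 149 CPM (144 to 155), or 319-fold lower in BICR78 (168 to 698). SKN3 had 1482 NSD1 reads. The Cal27 cells labelled as an NSD1 knockout kept NSD1 RNA, with 4479 reads (203 CPM) untreated. With DMSO they had 165 and 164 CPM, against 113 and 114 CPM in Cal27 given DMSO. Nothing in the labels marks BICR78 as altered at NSD1, and the near absence extended to the adjacent genes of chromosome 5. Beside NSD1 (chr5:177131798-177300213, GRCh38), the receptor tyrosine kinase gene FGFR4 had 1 read in BICR78 and 420 in Cal27, the zinc finger gene ZNF346 had 1 and 436, and the DNA repair gene UIMC1 had 7 and 600. UNC5A had 3 and 76 reads and was under the 100-read minimum. On either side the counts were ordinary: TSPAN17 had 1097 reads in BICR78 and 1143 in Cal27, and on the far side RAB24 had 342 and 249 and PRELID1 had 2145 and 2696. SKN3 kept reads across the same stretch, with 918 for UIMC1, 443 for ZNF346 and 89 for FGFR4. DNA copy number was not measured in the files used here, so whether the DNA is missing was not tested.

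The other histone methyltransferase genes lay within 2-fold. Here and below a pair of values is BICR78 first and Cal27 second, and a number alone in brackets is the log2 CPM difference. NSD2 was at 191 CPM in BICR78 and 136 in Cal27 (log2 difference 0.48), NSD3 at 74.4 and 64.8 (0.20), and EZH2, the catalytic subunit of Polycomb repressive complex 2, at 33.9 and 54.6 (-0.69). Of 16 members of the NSD and H3K36 methylation list, none was higher and 2 were lower: NSD1 and the demethylase gene KDM4D (2.24 against 5.04 CPM). None of 14 Polycomb and H3K27 demethylase genes passed 2-fold either way (median 0.09). In the DNA methylation list 3 of 16 were higher and none lower. TET1, which oxidises methylcytosine, was at 31.7 CPM in BICR78 and 4.0 in Cal27 (2.95), and the methyltransferases DNMT3A (20.9 and 7.76 CPM, 1.42) and DNMT3B (28.9 and 10.8 CPM, 1.40) were the other members past 2-fold.

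The longest run of neighbouring genes all lower in BICR78 lay on the short arm of chromosome 9. There 14 genes in a row, from MLLT3 to ACO1 (chr9:20341669-32454769), were at least 2-fold lower, with a median log2 difference of -6.34. They include the cell cycle inhibitor genes CDKN2A, which had 3 reads in BICR78 and 1137 in Cal27, and CDKN2B, which had 0 and 640, at least 195-fold lower. The methionine salvage gene MTAP had 16 and 2427 reads, KLHL9 had 9 and 759, the neuronal RNA-binding protein gene ELAVL2 had 1 and 294, and CAAP1 had 1 and 547. Counts stayed near 0 through PLAA (2 and 1543), IFT74 (2 and 296), MOB3B (0 and 367) and C9orf72 (0 and 187), and at ACO1 they returned to 796 and 1797. SKN3 was low at part of these genes: it had 0 CDKN2A, 2 CDKN2B and 4 ELAVL2 reads, against 133 for DMRTA1, which lies between CDKN2B and ELAVL2 (0 in BICR78 and 32 in Cal27), 1904 for MTAP, 527 for KLHL9 and 795 for PLAA. As for NSD1, DNA copy number was not measured here.

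**Figure D2:**
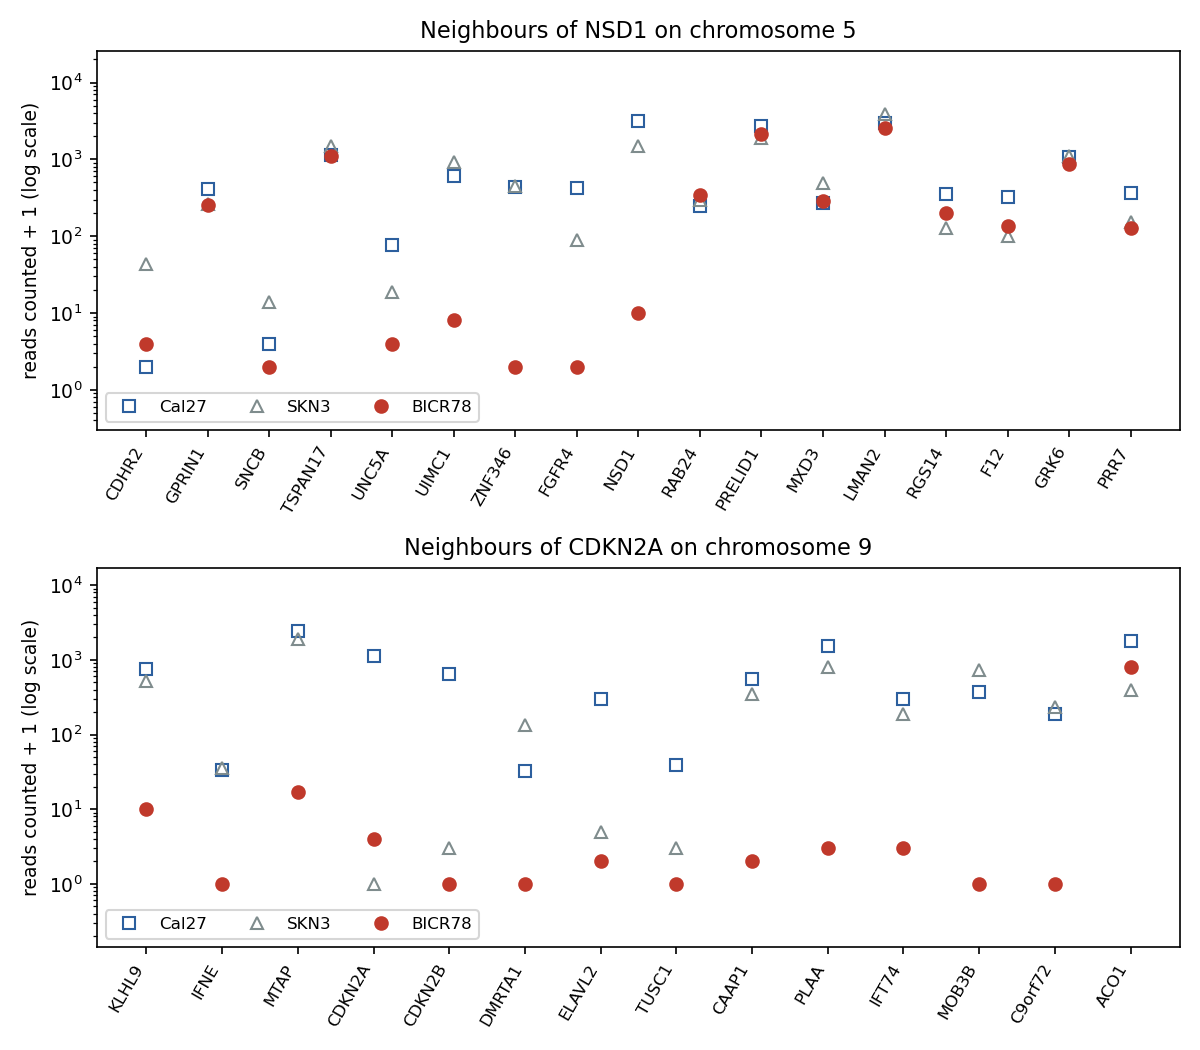
Reads counted plus 1 on a log y axis for consecutive genes around NSD1 (upper panel) and CDKN2A (lower panel) in genome order, for BICR78 (red circles), Cal27 (blue squares) and SKN3 (grey triangles), 1 library each; genes with under 10 reads in all of these libraries are not drawn. BICR78 has 9 reads or fewer from UNC5A to NSD1 and 16 or fewer from KLHL9 to C9orf72, with ordinary counts in TSPAN17, RAB24 and ACO1 at the sides.

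Other single genes were near absent in BICR78 between neighbours with ordinary counts. ALDH7A1, a lysine catabolism enzyme gene, had 27 reads in BICR78 and 2346 in Cal27 (-6.19), ZNF608 had 6 and 533, CMTM7 had 2 and 555, and LDAH, a lipid droplet hydrolase gene, had 2 and 344. LYPLAL1 had 0 and 313 reads, and RHCG, an ammonium transporter gene of squamous epithelium, had 0 and 681, at least 208-fold lower. The pseudokinase gene TRIB2 had 7 reads in BICR78, 3 in SKN3 and 1398 in Cal27. The opposite pattern was found on the short arm of chromosome 8, where reads present in BICR78 were near absent in Cal27. The phosphate transporter gene SLC20A2 had 1140 reads in BICR78 and 1 in Cal27 and the adjacent SMIM19 had 284 and 0. Nearer the end of the same arm TUSC3, an oligosaccharyltransferase subunit gene, had 2027 and 2, the palmitoyltransferase gene ZDHHC2 had 557 and 22, and the GTPase-activating protein gene DLC1 had 590 and 13.

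Some genes had many reads in one line and next to none in the other. At least 100 reads in BICR78 with 0 to 3 in Cal27 were found for 140 genes (1.2% of the 11661), 51 of them at 0 in Cal27. The reverse, at least 100 reads in Cal27 with 0 to 3 in BICR78, held for 50 genes (0.429%), 15 of them at 0 in BICR78. Of the 140, 86 were at 0 to 3 reads in all 8 libraries of Cal27 or its labelled knockout, and 75 had at least 100 reads in SKN3 while 15 had 0 to 3. Of the 50, 25 had at least 100 reads in all 8 of those libraries, and SKN3 had at least 100 reads for 15 and 0 to 3 for 22. On chromosome 9 lay 11 of the 50 and on chromosome 5 lay 6, where 490 and 508 of the 11661 members lay. The 50 included TERT, the telomerase reverse transcriptase gene (3 reads against 161), the decoy receptor gene TNFRSF6B (0 against 238), WNT5A, a non-canonical Wnt ligand gene (3 against 129), SNRPN (3 against 148) and LAPTM5, a lysosomal gene better known from blood cells (0 against 154).

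The placental-type alkaline phosphatase gene ALPG had the largest log2 CPM difference towards BICR78 (10.05, with the prior count), with 11281 reads against 9. That is 586 CPM against 0.428 CPM, 1369-fold (721 to 2995) as a plain ratio. MXRA8 had a larger ratio, 1955-fold, which rests on 1 Cal27 read. For ALPG, SKN3 had 412 reads and the Cal27 DMSO libraries had 0. ALPP, the near-identical neighbour of ALPG, had 8477 reads against 123. Since reads can be shared between such copies, the summed count of ALPG and ALPP is the safer value, 19758 against 132. The window around the ALPG start site is shown because this gene was the furthest apart; it holds 6 CpG dinucleotides (CG in capitals, the same on both strands). The window of RefSeq (GRCh38.p14) covers 250 bases before and 50 bases after the annotated start, chr2:232406594-232406893 on the plus strand.
ALPG: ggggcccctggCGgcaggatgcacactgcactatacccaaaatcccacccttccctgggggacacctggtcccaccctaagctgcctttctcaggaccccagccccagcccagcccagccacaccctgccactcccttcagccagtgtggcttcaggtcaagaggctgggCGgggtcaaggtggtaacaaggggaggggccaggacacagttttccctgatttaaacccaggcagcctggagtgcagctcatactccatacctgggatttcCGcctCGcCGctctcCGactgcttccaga

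CpG counts in such windows differed between the sets. The median was 27 over the 9358 protein-coding members with a window in the table, 17 over 96 genes on in BICR78 and near absent in Cal27, and 20 over 39 genes on in Cal27 and near absent in BICR78. At least 15 CpG were found in 83.9%, 53.1% and 64.1% of these windows. Genes at least 2-fold higher and lower in BICR78 were in between, with medians of 24 and 25. DNA methylation was not measured in the files used here.

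After ALPG the genes furthest towards BICR78 were of several kinds. PEG10, a paternally expressed gene derived from a retrotransposon, was at 297 CPM in BICR78 and 0.333 in Cal27. KRT19, a simple epithelial keratin, was at 1689 and 2.57 CPM, 657-fold (504 to 875). Several encode matrix proteins: the type V collagen chain COL5A2 was at 336 and 0.809 CPM, FBLN2 had 1697 reads and 3 (618-fold, 211 to 2999), and MFAP5 was at 78.9 and 0.238 CPM. MXRA8 had 1790 reads and 1 (1955-fold, 350 to 77272). The sulfatase gene SULF1 (552 reads against 0, at least 201-fold) and osteopontin, SPP1 (587 against 0, at least 214-fold), belonged to the same 15, as did the CCN family gene CCN5 at 107 and 0.381 CPM. BARX1, a homeobox gene of craniofacial and gastric mesenchyme, had 1083 reads against 0, at least 394-fold. In SKN3 these genes split: COL5A2 was at 716 CPM, BARX1 at 69.3 and SPP1 at 67.9, whereas SULF1 was at 0.264 and CCN5 at 0.105 CPM.

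Among the most abundant genes by CPM, which is not corrected for transcript length, those past 2-fold included the mitochondrial genes MT-ND1 (log2 difference 2.31) and MT-ND5 (1.22), the basal keratin KRT14 (-2.40), the amino acid transporter SLC7A5 (-1.39), the hyaluronan receptor CD44 (-1.30), the actin-severing protein CFL1 (-1.48) and the glutathione transferase GSTP1 (-1.59). Against the mean of the Cal27 DMSO libraries SLC7A5 (-0.90) and CD44 (-0.87) lay within 2-fold; KRT14 and GSTP1 are taken up below. The non-coding genes with the largest differences were AK4P1, PYY2 and CMAHP towards BICR78 and GTF2H2B, CRYZL2P and HTATSF1P2 towards Cal27. A few extreme rows came from near-identical copies. SIK1 had 2204 reads in BICR78 and 131 in Cal27 while its copy SIK1B had 2 and 2186, and their sum was 2206 and 2317 (log2 difference 0.06), so neither row alone is a result about the gene.

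The keratins differed by layer. Of 7 basal and stress keratins 4 were lower in BICR78 and none higher (median -1.0). KRT14, the basal partner of KRT5, was at 1288 CPM in BICR78 and 6783 in Cal27, and KRT15, a basal and stem cell keratin, at 132 and 1664 CPM (-3.65). KRT5 was at 6680 and 11306 CPM (-0.76) and the wound keratin KRT17 at 2097 and 1736 (0.27). Simple epithelial keratins went the other way, with KRT19 and KRT8 (1482 and 328 CPM, 2.18) higher and KRT18 (0.93) and KRT7 (0.68) within 2-fold. KRT80, only grouped with them in the list, was at 385 and 121 CPM (1.67), so that 3 of 5 were higher and none lower. The 2 Cal27 DMSO libraries had 1330 and 1316 CPM of KRT14, close to BICR78 (log2 difference -0.04), so the lower KRT14 rested on the untreated Cal27 library. Against their mean KRT15 (248 and 240 CPM in them) was at -0.88, KRT6A at 0.98 and KRT80 at 0.96, so these calls rested on it too, KRT17 was at 1.10, and the median of the basal and stress keratins turned to 0.73.

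Suprabasal keratins and cornified envelope genes were mainly higher in BICR78, 11 of 18 against 1 lower, with a median of 1.79 where all genes had -0.028. The keratins of the spinous layer KRT1 (126 and 19.3 CPM) and KRT10 (115 and 27.8 CPM) and those of wet mucosa KRT4 (418 and 87.7 CPM) and KRT13 (932 and 220 CPM) were each higher by 2.04 to 2.70 on the log2 scale. The envelope crosslinking enzyme TGM1 was at 64.4 and 8.04 CPM (2.98), the envelope precursor IVL at 42.4 and 10.2 (2.04), filaggrin, FLG, at 31.6 and 2.09 (3.84) and repetin, RPTN, at 20.3 and 0.952 (4.25). The small proline-rich genes were mixed: SPRR2D was at 18.5 and 6.28 CPM (1.54), SPRR1A at 50.1 CPM in each line, SPRR1B at 119 and 123, and SPRR2A at 1.14 and 4.81 (-1.96). Against the Cal27 DMSO libraries SPRR1A was at 4.41 and SPRR1B at 3.92. In the Cal27 DMSO libraries KRT13 was at 6.46 and 6.71 CPM and KRT4 at 0.441 and 0.447, further below BICR78 than the untreated Cal27 library, and against them the list median was 4.88. SKN3 had KRT13 at 693 CPM but KRT1 at 0.843 and no reads of IVL or FLG.

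**Figure D3:**
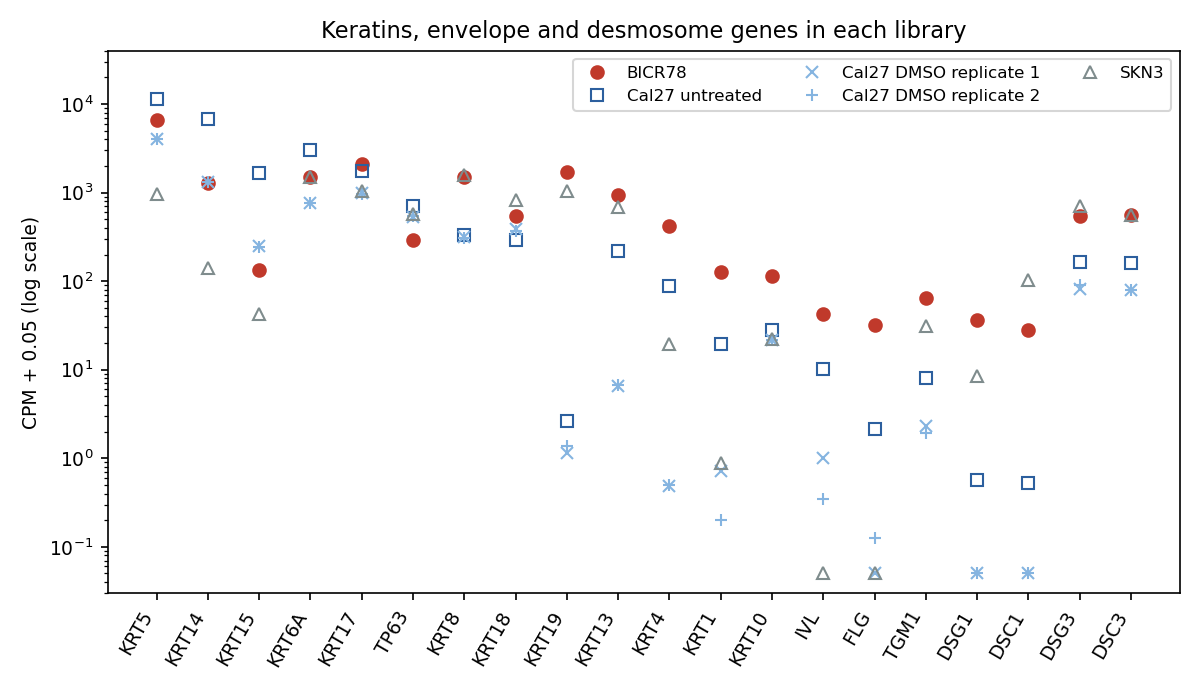
CPM plus 0.05 on a log y axis for keratin, envelope and desmosome genes and TP63 in BICR78, untreated Cal27, the 2 Cal27 DMSO replicates and SKN3, each symbol 1 library. BICR78 is above every Cal27 library from KRT8 to DSC3, and for KRT14 it lies beside the Cal27 DMSO replicates (1330 and 1316 CPM) and below untreated Cal27 (6783 CPM).

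The proteases and junction genes of the upper epithelium were mostly higher in BICR78 too. Of 8 kallikrein-related peptidase genes, secreted proteases that shed surface cells, 6 were higher and 1 lower (median 1.89), with KLK13 at 5.98 and 0.476 CPM (3.35) and KLK8 the exception at 13.3 and 45.8 CPM (-1.77). Of 12 desmosome genes 6 were higher and none lower (median 0.98). These were the desmosomal cadherins DSG1 (36.1 and 0.523 CPM, 5.81), DSC1 (27.9 and 0.476 CPM, 5.55), DSC2 (1.82), DSC3 (1.80), DSG3 (1.7) and DSG2 (1.15, or 0.98 against the Cal27 DMSO libraries), while the plaque proteins DSP (0.37), JUP (0.04) and PKP1 (0.52) lay within 2-fold. Against the Cal27 DMSO libraries DSP (1.75), JUP (1.15) and PKP1 (3.23) passed it too, and the list median was 2.20. All 6 cadherins sit side by side on chromosome 18, where neighbouring genes were also higher. Clade B serpins were higher at 5 of 10 and lower at 2, with SERPINB7 at 2.63 and SERPINB9 at -2.43. Their median was 0.62, or 0.11 against the Cal27 DMSO libraries. Mucins were higher at 3 of 4, among them the membrane mucin MUC4 at 206 and 18.7 CPM (3.45).

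Lineage transcription factors were mixed, with 5 of 26 higher and 6 lower (median -0.02, or 0.74 against the Cal27 DMSO libraries). GRHL3, which drives barrier formation, was at 41.1 and 3.71 CPM (3.42), and IRX4 at 47.5 and 16.1 (1.55). TP63, the master regulator of squamous epithelium, was at 292 and 708 CPM (-1.28), SOX2 at 4.21 and 22 (-2.35) and the ETS factor EHF at 67.3 and 372 (-2.47). Against the Cal27 DMSO libraries TP63 was at -0.88. FOXA2 had 2 reads against 101. The calgranulins S100A8 and S100A9, antimicrobial proteins of inflamed epithelium, were at 2.75 and 89.9 CPM (-4.97) and 23 and 309 CPM (-3.74), and S100A7A had 2 reads against 156. In the same family S100P (22.4 and 1.14 CPM, 4.15) and S100A4 (115 and 8.52 CPM, 3.74) were higher, so that the S100 list had 2 of 14 higher and 5 lower.

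Matrix proteases and their inhibitors were higher at 8 of 12 genes and lower at 2 (median 1.65). The interstitial collagenase MMP1 was at 509 CPM in BICR78 and 129 in Cal27 (1.98), the stromelysin MMP10 at 453 and 66.3 (2.77), the elastase MMP12 at 80.0 and 3.47 (4.48), and the gelatinase MMP2 at 79.6 and 6.09 (3.68). Collagenase-3, MMP13, was opposite, at 6.76 and 190 CPM (-4.79). The inhibitors TIMP1 (1.96) and TIMP2 (2.25) were higher. Collagens changed their make-up more than their sum: 6 of 17 were higher and 4 lower, with the fibrillar chains COL3A1 (10.8 and 0.999 CPM) and COL5A3 (4.24) and the basement membrane chains COL4A5 (2.18) and COL4A6 (3.10) higher, and COL5A1 (-1.61), COL6A2 (-2.52), COL12A1 (-1.15) and COL27A1 (-1.05, or -0.17 against the Cal27 DMSO libraries) lower. Summed, the collagen list had 3133 CPM in BICR78 and 2528 in Cal27. Its median was 0.50, or 1.58 against the Cal27 DMSO libraries.

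Integrins and laminins were higher at 10 of 22 and lower at 1. The laminin chain LAMA1 was at 80.2 and 0.428 CPM (7.19), the leukocyte-type integrin chain ITGB7 at 13 and 0.286 (5.01) and the collagen receptor chain ITGA1 at 51.3 and 3.90 (3.67), while ITGB6, which activates latent TGF-beta, was lower at 25.2 and 59.8 CPM (-1.24). The hemidesmosome pair ITGA6 (-0.03) and ITGB4 (-0.21) lay within 2-fold. In the mesenchymal list 3 of 17 were higher and 1 lower, the lower one being TNC, tenascin-C (172 and 1028 CPM, -2.58). The intermediate filament gene VIM had 57 and 29 reads, under the minimum.

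BMP and TGF-beta genes were higher at 11 of 24 and lower at 2 (median 0.75). The inhibitor of differentiation genes ID2 (31.3 and 1.86 CPM, 3.99) and ID3 (518 and 67.7 CPM, 2.93) were higher, as was ID4, with 386 reads against 1 (422-fold, 75.2 to 16697). ID1 was at 276 and 96.4 CPM (1.51). The inhibitory SMADs, SMAD6 (43.2 and 4.85 CPM, 3.12) and SMAD7 (40.3 and 2.86 CPM, 3.76), were higher, and the ligand gene BMP7 was lower, at 1.04 and 55.8 CPM (-5.59). SMAD4, the shared signal transducer of the pathway, was named after its value was seen: it was at 58.9 CPM in BICR78, 52.3 in SKN3 and 11.1 in Cal27 (2.39), and between 8.59 and 14.1 CPM in the 7 other libraries of Cal27 origin.

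Other signalling lists held single genes far apart in an otherwise mixed set. Axon guidance genes were higher at 13 of 32 and lower at 5 (median 0.68), led by SEMA3D (54.5 and 1.43 CPM, 5.14), PLXND1 (69.4 and 3.85 CPM, 4.13) and SLIT2 (15.5 and 1.19 CPM, 3.57). Wnt genes were higher at 6 of 22 and lower at 5: the receptor ROR2 was at 12.4 and 0.190 CPM, and the ligand WNT11 had 177 reads against 1. YAP and TEAD targets were higher at 4 of 20 with none lower, among them ANKRD1 (18.8 and 0.238 CPM, 5.71). Of 9 EGF-family genes 1 was higher and 2 lower. The ligand epigen, EPGN, had 184 reads against 0 (at least 67.0-fold) and neuregulin, NRG1, was at 39.7 and 174 CPM (-2.13). ERK feedback genes were lower at 6 of 17 and higher at 1, with the AP-1 subunit FOSL1 at 16 and 114 CPM (-2.83), ETV4 at -2.20, DUSP4 at -2.14 and IER3 at -2.07. Of 15 Notch genes 1 was higher and 1 lower (median 0.09, or 1.21 against the Cal27 DMSO libraries).

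Interferon-stimulated genes were the largest list that was mainly lower in BICR78. Of 63 members 34 were lower and 1 higher (median -1.08), and their summed level was 3925 CPM in BICR78, 7645 in Cal27 and 2039 in SKN3. The antiviral GTPase genes MX1 (9.82 and 188 CPM, -4.24) and MX2 (1.61 and 27.2 CPM, -3.98), IFI44L (0.624 and 17.5 CPM, -4.56), IFI6 (5.51 and 87.3 CPM, -3.96) and the guanylate-binding protein gene GBP4 (2.91 and 33.5 CPM, -3.47) were furthest apart. Oligoadenylate synthetases followed, with OAS1 at -3.38, OAS2 at -3.07 and OAS3 at -2.17. The IFIT genes did not: IFIT1 was at 87.5 and 88.3 CPM and IFIT2 at 122 and 115 CPM, though IFIT1 was at -1.04 against the Cal27 DMSO libraries. EPSTI1 was the 1 member higher, at 39.0 and 16.2 CPM (1.26), though it was at 39.0 and 39.1 CPM in the Cal27 DMSO libraries. The 2 Cal27 DMSO libraries had more MX1 (417 and 399 CPM) and IFI6 (233 and 241 CPM) than the untreated Cal27 library, and against them the median of the list was -1.72.

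The windows at the IFI6 and MX1 start sites are shown because both genes were among the most reduced of the list and both hold GAAANNGAA, the core of the element bound by interferon-activated factors. The motif (matches in capitals, N being any base, both strands searched, overlapping matches counted) occurs 3 times in the IFI6 window (chr1:27672143-27672442, minus strand) and 2 times, overlapping, in the MX1 window (chr21:41420308-41420607, plus strand) of RefSeq GRCh38.p14.
IFI6: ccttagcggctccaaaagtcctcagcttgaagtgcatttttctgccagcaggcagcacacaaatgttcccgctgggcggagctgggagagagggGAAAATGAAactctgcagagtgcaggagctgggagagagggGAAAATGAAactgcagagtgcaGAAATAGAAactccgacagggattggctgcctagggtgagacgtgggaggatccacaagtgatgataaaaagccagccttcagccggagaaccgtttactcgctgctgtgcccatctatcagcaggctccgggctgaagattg
MX1: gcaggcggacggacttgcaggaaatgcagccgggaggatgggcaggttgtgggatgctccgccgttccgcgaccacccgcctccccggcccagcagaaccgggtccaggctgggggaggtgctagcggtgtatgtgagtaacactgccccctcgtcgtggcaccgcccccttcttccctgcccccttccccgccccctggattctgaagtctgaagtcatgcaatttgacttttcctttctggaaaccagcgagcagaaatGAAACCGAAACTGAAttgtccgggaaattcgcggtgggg
Of all 27305 such windows 8.29% held the motif, and of the member windows 6.32%. In the interferon-stimulated list 31 of the 46 windows in the table did (67.4%). Of the list members with the motif 13 of 31 were lower (median -0.88), and of those without it 11 of 15 (median -1.44).

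The factors that carry interferon signals were lower in part. Of 20 genes in that list 6 were lower and none higher: the transcription factor IRF9 was at 9.77 and 51.3 CPM (-2.38), IRF1 at 58.6 and 132 (-1.17), and the interferon-gamma receptor chain IFNGR2 at 24.0 and 66.0 (-1.46). STAT2 was at 78.6 and 121 CPM (-0.62), and JAK1, JAK2 and TYK2 were between -0.16 and 0.21. IRF9 is also in the interferon-stimulated list.

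Antigen presentation by MHC class I was lower at 7 of 19 genes and higher at none (median -0.83, and -1.20 against the Cal27 DMSO libraries). The peptide-trimming enzyme ERAP2 was at 14.1 and 128 CPM (-3.17), HLA-C at 210 and 696 (-1.73), HLA-F at 12.7 and 41.5 (-1.7), the peptide transporter TAP2 at 75.4 and 189 (-1.33), and the immunoproteasome subunits PSMB8, PSMB9 and PSMB10 between -1.32 and -1.20. HLA-B (157 and 192 CPM, -0.29) and B2M (487 and 867 CPM, -0.83) lay within 2-fold, but at -1.20 and -1.55 against the Cal27 DMSO libraries. The classical HLA genes are alike in long stretches, so their single rows are uncertain. Of 9 MHC class II genes 3 were higher and 1 lower (median 0.61, or -0.34 against the Cal27 DMSO libraries), with the regulator CIITA at 42.2 and 27.6 CPM (0.61).

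Chemokine, cytokine and NF-kappaB genes were lower or within 2-fold for the most part. The neutrophil attractants CXCL1 and CXCL8 and the lymphocyte and dendritic cell attractant CCL20 were lower: CXCL1 had 1 read in BICR78 and 1783 in Cal27 (1632-fold, 293 to 64507), CXCL8 was at 11.7 and 38.8 CPM (-1.71), and CCL20 had 0 reads against 151 (at least 46.1-fold). These 3 were the members of a list of 9 that reached 100 reads, with a median of -5.89, or -5.53 with CCL20 at its bound. The monocyte attractant CCL2 had 2 reads against 595. Interleukin genes IL1A (7.54 and 49.8 CPM, -2.70) and IL1B (11.3 and 112 CPM, -3.30) and the receptor IL1R1 (1.77 and 54.3 CPM, -4.85) were lower, and IL18 was higher (120 and 17.0 CPM, 2.81). Of 17 NF-kappaB genes 7 were lower and none higher (median -0.71), among them the targets TNFAIP2 (55.9 and 695 CPM, -3.63), BIRC3 (-2.25), TNFAIP3 (-2.17) and the inhibitor NFKBIA (-1.48). Untreated Cal27 had less CXCL1, CXCL8 and IL1B than the Cal27 DMSO libraries, which had 383 and 382, 355 and 376, and 626 and 633 CPM.

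CXCL1 and CXCL8 lie close together on chromosome 4 and both windows hold GGAATTTCC, a match to the NF-kappaB element, yet CXCL1 was near absent in BICR78 while CXCL8 was not, which is why both are shown. The motif was searched on both strands and is in capitals; it overlaps no other motif searched here. The windows are chr4:73869143-73869442 (CXCL1) and chr4:73740319-73740618 (CXCL8), both on the plus strand, from RefSeq GRCh38.p14.
CXCL1: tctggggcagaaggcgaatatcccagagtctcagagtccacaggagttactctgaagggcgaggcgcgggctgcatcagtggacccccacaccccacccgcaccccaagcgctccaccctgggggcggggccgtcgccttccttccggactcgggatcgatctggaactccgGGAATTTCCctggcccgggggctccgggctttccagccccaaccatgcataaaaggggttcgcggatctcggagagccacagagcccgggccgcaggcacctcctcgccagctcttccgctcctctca
CXCL8: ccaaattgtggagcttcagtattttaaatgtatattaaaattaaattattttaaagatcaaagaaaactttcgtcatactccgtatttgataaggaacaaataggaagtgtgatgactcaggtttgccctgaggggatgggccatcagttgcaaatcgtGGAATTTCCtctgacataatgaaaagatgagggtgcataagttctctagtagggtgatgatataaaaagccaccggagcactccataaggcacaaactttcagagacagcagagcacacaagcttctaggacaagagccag
The motif occurs in 129 of 27305 windows (0.472%) and in 38 of 9358 member windows (0.406%), and in 5 of 15 windows of the NF-kappaB list. The CXCL1 window has 22 CpG dinucleotides and the CXCL8 window 4.

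Ligands that restrain T cells and complement genes were mixed. CD274, which encodes PD-L1, was at 1.82 CPM (1.27 to 2.53) in BICR78 and 8.33 CPM (7.14 to 9.66) in Cal27 (-2.12), LGALS9 at 0.988 and 10.7 (-3.28), and VTCN1 at 19.6 and 2.14 (3.13), so that 1 of 8 checkpoint ligands was higher and 3 were lower. Complement factor C3 was at 22.1 and 280 CPM (-3.66) against C5 at 17.9 and 2.57 (2.74).

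**Figure D4:**
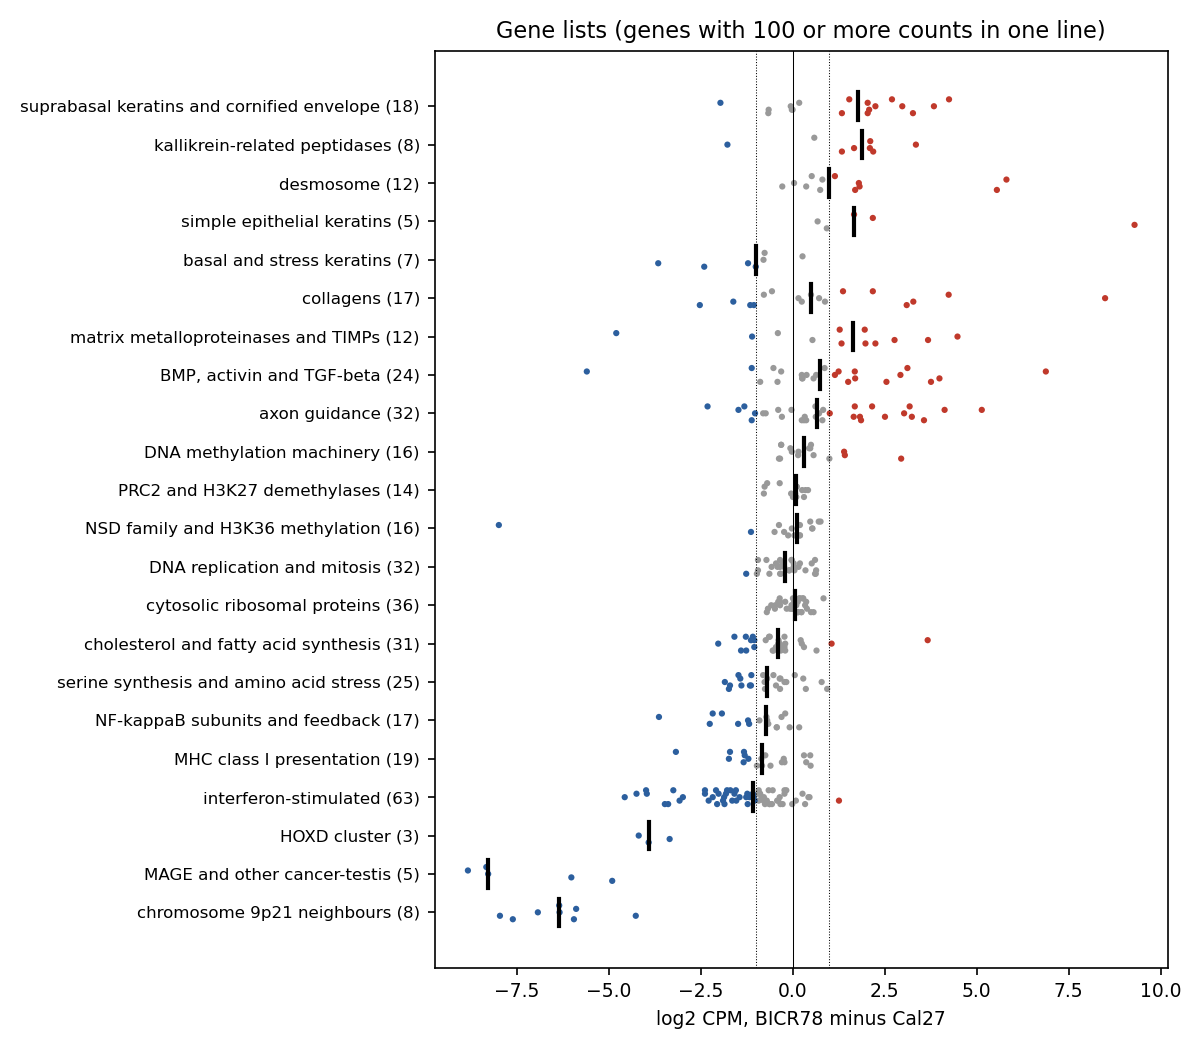
Each point is a gene of the named list that had at least 100 reads in BICR78 or Cal27, placed by its difference in log2 CPM (BICR78 minus Cal27, 1 library each); red and blue mark at least 2-fold higher and lower, black bars the list median, and numbers in brackets the genes shown. Envelope genes (median 1.79) and kallikreins (1.89) lie to the right, ribosomal proteins (0.07) at the centre, and interferon-stimulated (-1.08), HOXD (-3.91) and MAGE (-8.27) genes to the left. The HOXD and MAGE genes shown reached 100 reads only in Cal27.

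Cancer-testis genes, which are silent in most adult tissues outside the germ line, were near absent in BICR78. Of 52 listed genes 5 reached 100 reads, all in Cal27, and all 5 were lower: MAGEA4 had 5 reads in BICR78 and 3642 in Cal27, MAGEA3 had 4 and 2141, MAGEA6 had 3 and 1877, CSAG3 had 3 and 173, and DDX43 had 0 and 164. These 5 entered through Cal27 alone, so all of them being lower follows largely from the entry rule. Over all 52 listed genes the summed level was 2.34 and 384 CPM. SKN3 had 2, 1 and 0 reads of MAGEA4, MAGEA3 and MAGEA6. Because MAGEA3 and MAGEA6 are near-identical, reads may be split between them, and their sum was 7 against 4018. The MAGEA3 window is shown because this gene pair had many reads in one line and single reads in the other. The MAGEA3 and MAGEA6 windows agree at 300 of 300 bases and hold 19 CpG (capitals). The MAGEA3 window is chrX:152698544-152698843, plus strand, from RefSeq GRCh38.p14.
MAGEA3: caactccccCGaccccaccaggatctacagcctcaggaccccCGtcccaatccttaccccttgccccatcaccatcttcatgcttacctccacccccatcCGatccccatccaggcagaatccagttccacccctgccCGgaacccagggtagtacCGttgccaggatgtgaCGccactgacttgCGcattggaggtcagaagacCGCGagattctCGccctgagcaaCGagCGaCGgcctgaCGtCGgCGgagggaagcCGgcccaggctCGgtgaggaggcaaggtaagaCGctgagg

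HOX genes, which record position along the body axis, differed by cluster. All 3 HOXD members were lower: HOXD9 was at 1.40 and 27.6 CPM (-4.18), HOXD10 at 3.33 and 51.7 (-3.91) and HOXD11 at 1.82 and 19.5 (-3.34). In the HOXA cluster HOXA13 alone of 7 members passed 2-fold, at 19.7 and 0.952 CPM (4.2), and 3 of 5 HOXC members were higher. Clustered protocadherins, cell surface identity genes, were lower at 5 of 7 and higher at 1 (median -2.25, or 0.02 against the Cal27 DMSO libraries).

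Growth and metabolism lists varied in how many genes passed 2-fold, beside 13.8% higher and 8.78% lower of all members. Cytosolic ribosomal protein genes had none of 36 past 2-fold (median 0.07), and replication and mitosis genes had 1 of 32 lower. Among D-type cyclins and CDK inhibitors, CCND2 was at 79.1 and 2.28 CPM (5.04), while the p53 target CDKN1A was at 175 and 35.1 CPM (2.32) and CDKN1C at 5.46 and 0.619 (2.91). CCND2 in the Cal27 DMSO libraries was 49.3 and 47.9 CPM, against which the difference was 0.70. Serine synthesis and amino acid stress genes were lower at 9 of 25 and higher at none (median -0.69), with the serine pathway enzymes PHGDH (55.5 and 181 CPM, -1.7) and PSAT1 (82.9 and 297 CPM, -1.84) and the transporters SLC1A5 (-1.42) and SLC3A2 (-1.12) among them. Cholesterol and fatty acid synthesis genes were lower at 9 of 31 and higher at 2: the squalene epoxidase SQLE was at 23.5 and 95.8 CPM (-2.02), the reductase DHCR7 at -1.58, and the desaturase FADS2 was opposite at 145 and 11.3 CPM (3.67). Glycolysis and hypoxia genes were higher at 7 of 32 and lower at 3, with the neuronal-type glucose transporter SLC2A3 at 45.5 and 0.286 CPM (6.80) and CA9, a hypoxia marker, at 78.6 and 15.5 (2.34).

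Detoxification genes were higher at 9 of 44 and lower at 4, where 13.8% of all members were higher and 8.78% lower. The aryl hydrocarbon receptor target CYP1A1 was at 42.1 and 5.14 CPM (3.0), the glucuronosyltransferase UGT1A6 at 17.7 and 1.33 (3.62) and the glutathione transferase GSTM3 at 0.728 and 13.1 (-3.96). NFE2L2, which encodes NRF2, was at 128 and 168 CPM (-0.40) and its target NQO1 at 89.4 and 111 (-0.32). GSTP1 was at 514 and 1548 CPM, but at 31.0 and 20.7 CPM in the Cal27 DMSO libraries, against which the log2 difference was 4.34. Of the gene rows, 14 with at least 100 reads in untreated Cal27 had 0 to 3 in both DMSO libraries, 10 of them in all 6 libraries of that set, and whether rows were counted in the same way in the 2 sets was not tested.

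Differences followed genome position. Chromosome 18 had a median of 0.66, with 36.7% of its 169 genes higher and 4.73% lower, and chromosome 22 had a median of -0.70, with 29.6% of 284 genes lower and 6.69% higher. Chromosome 21 was at -0.63 (22.4% of 107 lower) and chromosome X at 0.39 (17.5% of 366 higher). Chromosome 11 was split within itself, with 117 genes higher and 125 lower of 659. In 20-Mb bins, chosen after the plot along the genome was seen, its 20 to 40 Mb bin had a median of -0.85 (40.0% lower), its 60 to 80 Mb bin -0.67 (32.8% of 253 lower), its 100 to 120 Mb bin 0.94 (47.7% higher) and its 120 to 140 Mb bin 1.14 (56.5% of 46 higher). On chromosome 18 the 0 to 20 Mb bin was at -0.59 and the 40 to 60 Mb bin at 1.01. On chromosome 2 the 40 to 60 Mb bin, which holds EPCAM (1.04) and MSH6 (1.14), was at 0.99. Against the Cal27 DMSO libraries EPCAM was at 0.61.

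**Figure D5:**
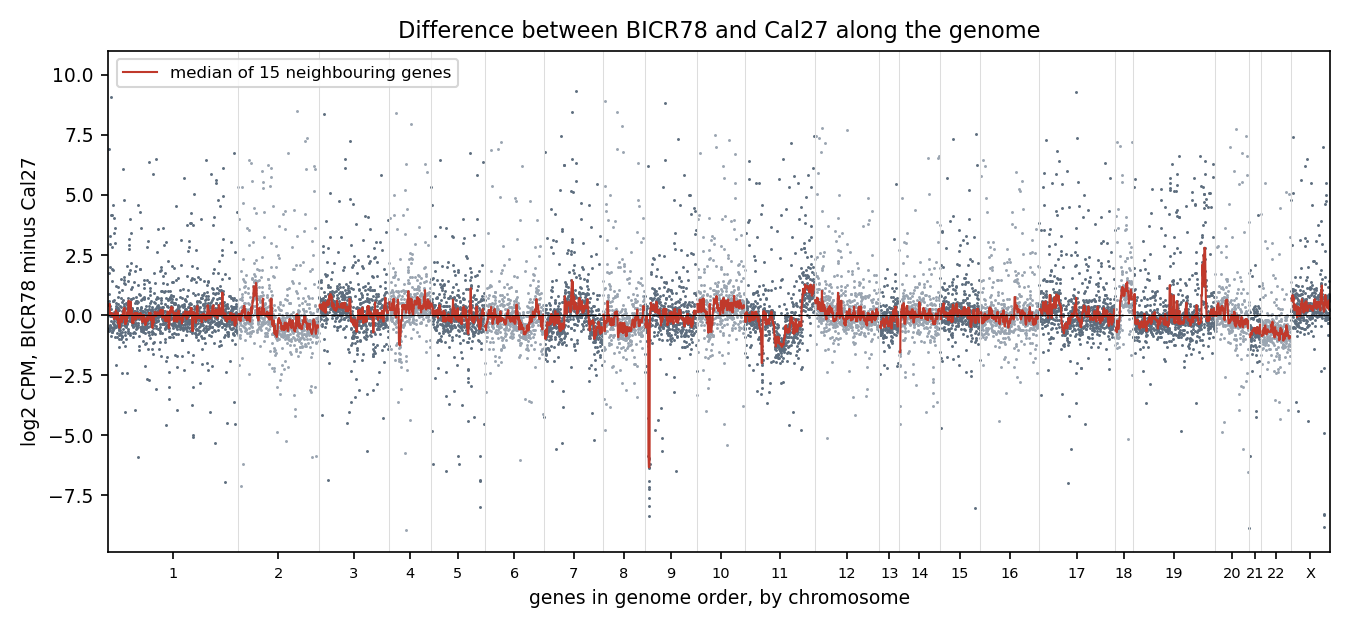
The difference in log2 CPM (BICR78 minus Cal27) on the y axis for each gene with at least 100 reads in either library, in genome order on the x axis; the red line is the median of 15 neighbouring genes within a chromosome. The line drops to -6.33 on chromosome 9, rises to 2.80 on chromosome 19, and stays below 0 along most of chromosome 22.

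Over 15 neighbouring genes, the lowest median was that of chromosome 9 from HAUS6 to MOB3B (-6.33). The next was chromosome 11 from CD59 to COMMD9 (-1.99), where the run from EHF to COMMD9 (chr11:34621093-36289424) held 8 genes, among them APIP (17.2 and 118 CPM), PDHX, a pyruvate dehydrogenase component gene (34.4 and 225 CPM), and CD44 (715 and 1762 CPM). On chromosome 11 the window from OVOL1 to PACS1, with CFL1 and FOSL1, had a median of -1.31. On chromosome 22 the cytidine deaminases APOBEC3C (25.1 and 89.9 CPM) and APOBEC3G (1.30 and 28.0 CPM), APOBEC3F, CBX7 and PDGFB were lower in a row (median -2.16). Towards BICR78, chromosome 7 had 8 genes in a row from PHTF2 to SEMA3D (median 3.10), which include the class 3 semaphorins SEMA3A, SEMA3C, SEMA3D and SEMA3E and the fatty acid transporter CD36 (57.5 and 0.523 CPM). The chromosome 18 cadherin run from DSC3 to B4GALT6 had a median of 1.80 over 7 genes, and the SMAD4 window from LIPG to TCF4 one of 1.37. Where a list and a segment overlap in this way, the parts of each were not tested.

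The runs of neighbours furthest towards BICR78 were zinc finger genes of chromosome 19, DNA-binding repressor genes many of which bind transposable elements. From ZNF528 to ZNF160 (chr19:52397849-53103422) 11 genes in a row were higher, with a median of 4.44: ZNF160 was at 31.1 and 0.238 CPM, ZNF83 at 22.7 and 0.571, and ZNF600 had 297 reads against 3. A further 7 in a row, from ZNF708 to ZNF254, had a median of 5.19 and include ZNF91, with 227 reads against 3. SKN3 had 34.3 CPM of ZNF160, 37.5 of ZNF83, 21.4 of ZNF600 and 22.9 of ZNF91. Over all members whose symbol starts with ZNF or ZFP, a set defined after these blocks were seen, 61 of 340 were higher and 7 lower. On chromosome 19 the count was 42 higher and 1 lower of 134 (31.3% higher), elsewhere 19 and 6 of 206, and among other protein-coding genes of chromosome 19 it was 76 and 45 of 634 (12% higher). At least 100 reads in BICR78 with 0 to 3 in Cal27 were found for 17 of the 340, and for 1.2% of all 11661 members. Related zinc finger genes are similar in sequence, so reads may be assigned unevenly between them.

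The genes that differed between Cal27 and its labelled knockout were then looked up in BICR78. As given above, the labelled knockout kept its NSD1 RNA, while BICR78 had 9 NSD1 reads. Those lists came from the DMSO set, with no library in common with BICR78 or untreated Cal27, and needed 2-fold between the means of 2 replicates with no overlap between the groups. Of 1138 genes low in the labelled knockout, 504 had at least 100 reads in BICR78 or untreated Cal27. In BICR78 116 of them were lower (23%, where 8.78% of all members were) and 221 were higher (43.8%, where 13.8% were), with a median of 0.64. Of 94 members high in the labelled knockout 60 were higher in BICR78 (63.8%) and 8 lower (8.51%), with a median of 1.57. A gene that entered through only 1 line had to differ between the lines, so these shares describe the lists and support nothing. Among genes low in both were MMP13, BMP7, SNRPN, NIPAL4 (0.416 and 9.95 CPM) and ST6GAL1 (0.416 and 10.5 CPM). Among genes high in both were ANKRD1, SLIT2, ZDHHC2, SEMA3E (15.2 and 1.57 CPM) and ANXA9 (12.9 and 1.90 CPM).

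The response of the labelled knockout to EPZ-6438 was looked up in the same way. Of 732 members raised by the inhibitor, 334 were higher in BICR78 (45.6%, where 13.8% of all members were) and 148 lower (20.2%, where 8.78% were). Their median was 0.73. The same limit holds: a gene that entered through only 1 line had to differ, so these shares support nothing. Those raised by EPZ-6438 and lower in BICR78 included S100A8, S100A7A, PIK3AP1 (0.104 and 9.47 CPM), FCGBP (0.156 and 7.90 CPM) and NIPAL4. In the labelled knockout S100A8 went from 16 and 16 CPM with DMSO to 503 and 523 with EPZ-6438, and in BICR78 it was at 2.75 CPM. Of 84 members lowered by EPZ-6438, 26 were higher in BICR78 (31.0%) and 11 lower (13.1%), with a median of 0.23. FBXL22, DLX2, GDPD3 and PRR16 were among the higher. The labelled knockout and SKN3 were each also sequenced untreated beside the same Cal27 library, and as those comparisons share that library with BICR78 against Cal27, their values are given only side by side. For MX1 they were 101 CPM in the untreated labelled knockout and 3.80 in SKN3, for KRT14 45.6 and 139, for MAGEA4 178 and 0.105, and for CXCL1 453 and 18.6, where BICR78 had 9.82, 1288, 0.260 and 0.0520 CPM.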

How the data were processed

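The deposited table gives whole-number read counts per gene (hg38) for 10 RNA libraries, made by the authors from total RNA depleted of ribosomal RNA, per the labels' protocols; the submitters' processing notes list featureCounts 1.6.1, Picard 2.23.1, HISAT2 2.1.0 and CASAVA 1.7, with no roles. From the counts, TMM factors (edgeR 4.0.16, R 4.3.3) were fitted over all 10 libraries and log2 CPM computed with a prior count of 2. Intervals are exact 95% Poisson (CPM) or conditional binomial (ratios). A fold against 0 reads is a bound set at 3 reads. No test was run, since each line has 1 library; the code was tested on simulated counts. Symbols were matched to RefSeq GRCh38.p14 for 11335 genes and by older symbols for 178, and 148 stayed unmatched. The genes named were NSD1, NSD2, NSD3 and EZH2, the 15 largest differences each way, the most abundant genes past 2-fold, up to 5 members a list besides its defining genes, and genes of the named windows; others were chosen after their values were seen. Members and all 66 lists were chosen with earlier results of these data known. The 7 chromatin samples were not analysed here. Alternatives were other scalings, prior counts, minimums, folds, windows and a Cal27 DMSO reference. Some genes are not reported here.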

Additional observations from a re-analysis of the deposited data

How the results depend on the processing

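Each line had 1 untreated library, so replicate error is unknown and genes near 2-fold or 100 reads are the least certain. No paired analysis was possible because BICR78 and untreated Cal27 have 1 library each. Library size alone, median-ratio factors, TMM over only these libraries and protein-coding genes alone kept every count within 1.5 times; the overall median was -0.028 with TMM and 0.001 with library size alone. With a minimum of 500 reads, 738 genes were higher and 637 lower; with a fold of 1.5, 2581 and 2263; with a fold of 4, 772 and 317. The genes on in BICR78 and near absent in Cal27 numbered 241 and 15 with minimums of 50 and 500 reads and 238 with up to 10 reads as near absent; the reverse set numbered 78, 12 and 86. Genes low in the labelled knockout and lower in BICR78 numbered 37 (minimum of 500), 63 (Cal27 DMSO reference), 251 (fold of 1.5) and 39 (fold of 4). Those high in both numbered 23, 201 and 6 with the minimum of 500, fold of 1.5 and fold of 4, and those raised by EPZ-6438 and lower in BICR78 numbered 55, 326 and 37. Leaving out either replicate of the DMSO and EPZ-6438 groups gave 116 (both), 82 to 88 and 151 to 152 for these sets. The lowest window median was -7.07 and -5.55 with prior counts of 0.5 and 5, -5.88 with the minimum of 500, -6.76 with the Cal27 DMSO reference, and -7.04 and -1.24 over 10 and 30 genes. Among values past 2-fold, with the Cal27 DMSO libraries as reference the sign turned for the basal and stress keratins (0.73), clustered protocadherins (0.02), endothelial markers (-1.50), KRT6A (0.98), GSTP1 (4.34) and EPSTI1 (-0.00); with a minimum of 50 reads it turned for endothelial (-0.76) and gland and gut markers (1.86). List medians under 2-fold that turned sign against that Cal27 DMSO reference include MHC class II (-0.34), lineage factors (0.74), AP-1 (-0.36), HOXA (0.32), glycolysis (-0.16), ribosomal proteins (-0.26) and detoxification (0.06). Of 259 named genes with a value against the DMSO reference, 15 came within 2-fold and 9 passed it that had not. Only 68 of the 259 stayed within 0.25 on the log2 scale, the standard deviation between the Cal27 DMSO replicates. A further 188 moved by more, and 3 past 2-fold turned sign. Of 59 gene list medians (lists of chromosome neighbours left out), 23 stayed within that spread, 33 moved by more and 3 past 2-fold turned sign. The cause was not tested.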
